A study of Homo sapiens with 2 samples.

Results

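The translation initiation and elongation factors carry gene symbols that begin with EIF1 to EIF6 or with EEF1 or EEF2. They were compared between H6c7 cells carrying a K-ras oncogene and parental H6c7 cells. A gene entered when a probe set of the Affymetrix U133A array was annotated with its symbol alone, and Y-linked genes were left out. This gave 49 genes of 11963 genes named in this way, measured by 100 probe sets. H6c7 is an established line of human pancreatic duct epithelium, immortalised with papillomavirus genes, which the K-ras cells share. The labels give neither the K-ras allele nor a vector control, and do not say if these cells are pooled or 1 clone. Each line was hybridised to 1 array, so no difference has a replicate error or a p-value.

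Protein synthesis begins when EIF2 brings the initiator tRNA to the small ribosomal subunit and the EIF4 proteins lead that subunit to the capped end of an mRNA. EIF3 is the large scaffold between the subunit and the mRNA, and EIF1, EIF1A, EIF5 and EIF5B act at the start codon and at the joining of the large subunit. EEF1 and EEF2 then carry the ribosome through the coding region. Stress kinases shut initiation down by phosphorylating EIF2, and growth signals through mTOR release the cap-binding protein EIF4E from its binding proteins. In pancreatic and other carcinomas RAS signalling is known to act on this machinery through kinases that phosphorylate EIF4E.

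A signal is the deposited intensity of a probe set, and its floor was set at 46.9, the higher of the arrays' median signals. Each gene is represented by its brightest probe set, judged by the mean of the log2 signals. A gene under the floor on both arrays was not measured. Where a single array lay under it, the ratio against the floor is only a bound. Of the 49 genes 46 were measured, 43 of them above the floor on both arrays. Duct epithelium markers were present in both lines, with 7 of 8 markers on the array measured and CFTR under the floor in both. Acinar, endocrine, fibroblast and leukocyte markers had signals of at most 94.6 in the K-ras line and 131 in the parental line. Among them the leukocyte marker CD3E had 78.2 in K-ras cells and 11.2, under the floor, in parental cells. Of the duct markers, KRT19, EPCAM and SOX9 were at least 2-fold lower in K-ras cells, beside 14.4% of all measured genes. Another SOX9 probe set, however, had a log2 ratio of 0.04. The duct keratins KRT8 and KRT18 had log2 ratios of 0.88 and 0.38, and KRT7 and CDH1 -0.32 and -0.03. The part of these markers in the results was not tested.

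The start codon factors EIF5 and EIF5B, the cap-binding protein EIF4E and some subunits of EIF2, EIF2B and EIF3 were lower in the K-ras line, while the EIF4E-binding protein EIF4EBP1 and the start codon factor EIF1B were higher. Of the 46 measured genes, 12 (26.1%) were at least 2-fold lower and 2 (4.35%) at least 2-fold higher in the K-ras line. Over all 7693 measured genes the same shares were 14.4% lower and 9.97% higher. The median log2 ratio, K-ras over parental, was -0.17 over the translation factors and 0.10 over all measured genes. The sign of the first of these medians turned, to 0.02, when the arrays were scaled on 100 maintenance probe sets, a step that moved the median of all measured genes to 0.24. The lower genes were EIF3E, EIF5B, EIF5, EIF3A, EIF4E, EIF3M, EIF2B1, EIF2B3, EIF3J, EIF2AK2, EIF5A and EIF2S3, and the higher ones were EIF4EBP1 and EIF1B. Together these are 14 genes past 2-fold, beside 24.4% of all measured genes, and 32 measured genes did not pass it. Among those 32, EIF2AK3 and EIF5A2 are bounds, which do not show that they lay within 2-fold.

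**Figure D1:**
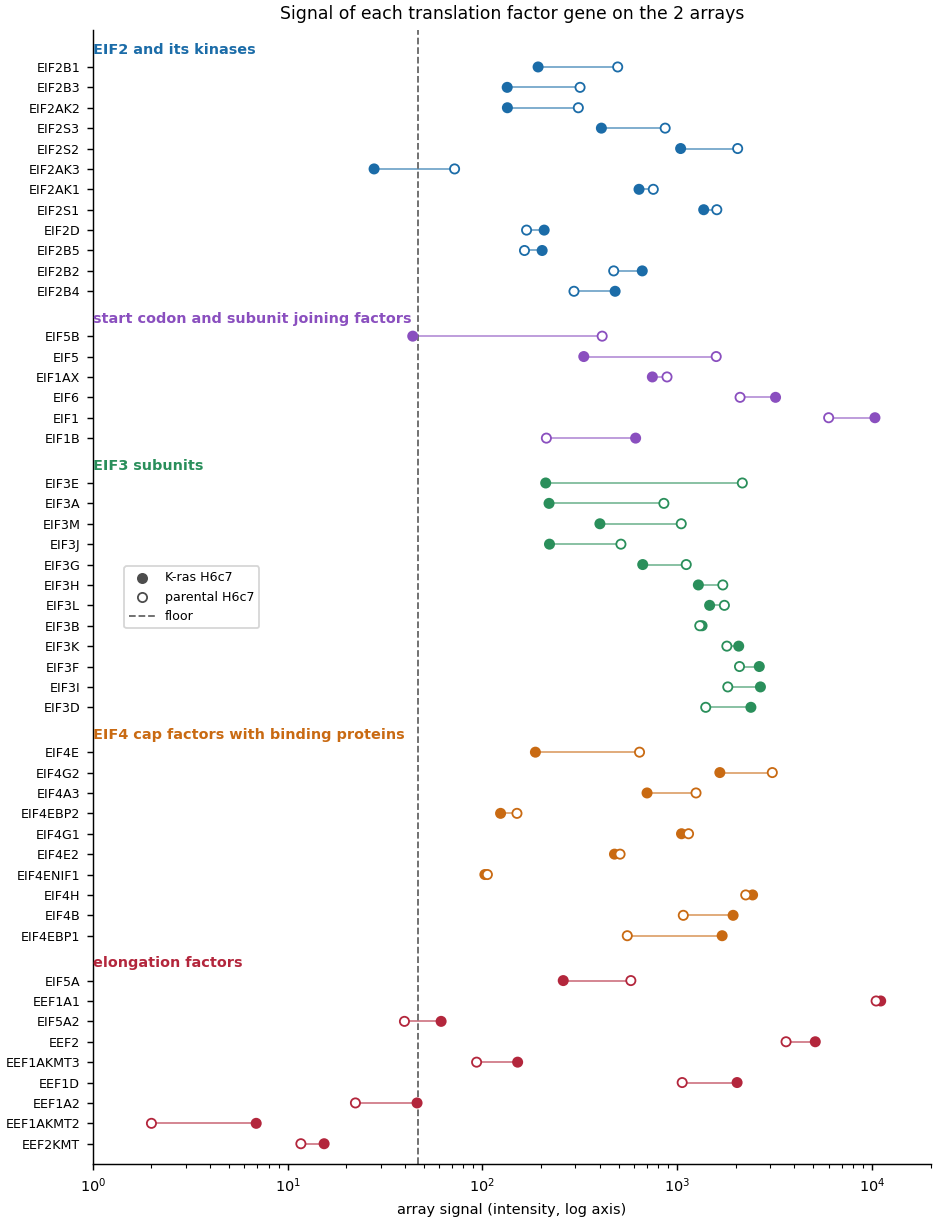
Signal (intensity, log axis) of each of the 49 genes in the K-ras line (filled points) and the parental line (open points), grouped by role, with the floor of 46.9 as a dashed line. Signals of different genes come from different probe sets and are not comparable with each other. Among the measured genes, EIF3E and EIF5B have the widest gaps on the lower side, and EIF4EBP1 and EIF1B on the higher side.

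Several mRNAs of this machinery are known to begin with a C followed by a run of pyrimidines, a feature through which mTOR controls their translation. The array measures mRNA levels, not translation. RefSeq transcript starts (GRCh38.p14) were available for 37 of the 49 genes. In 9 of them (24.3%) the first base was a C followed by at least 4 further bases that were C or T. The same held for 6.77% of 9563 genes with 1 symbol and a start, and for 33 of 48 genes of cytosolic ribosomal proteins (68.8%). The windows below run from 10 bases before the start to base 20 of the transcript, read on the gene's own strand. They are shown because they mark which members share the feature. Capitals mark the pyrimidine run from the start.
EEF1A1: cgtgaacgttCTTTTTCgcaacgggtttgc (chr6:73521013-73521042, minus strand).
EEF2: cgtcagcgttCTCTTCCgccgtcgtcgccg (chr19:3985444-3985473, minus strand).
EIF3D: cgcatgtttcCTCTTTTCCTggtttctcaa (chr22:36529147-36529176, minus strand).
EIF3F: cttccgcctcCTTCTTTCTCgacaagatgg (chr11:7987327-7987356, plus strand).
EIF3K: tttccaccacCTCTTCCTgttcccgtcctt (chr19:38619178-38619207, plus strand).
EIF3M: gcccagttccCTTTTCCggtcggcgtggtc (chr11:32583821-32583850, plus strand).
EIF4B: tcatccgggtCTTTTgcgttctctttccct (chr12:53006446-53006475, plus strand).
EIF2D: ccagccgggcCCTTTTCgcggccgggcccc (chr1:206612446-206612475, minus strand).
EIF2S3: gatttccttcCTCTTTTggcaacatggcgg (chrX:24054946-24054975, plus strand).

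For contrast, the same window is given for 4 genes whose results are described below and whose start lacks the run. Here the capital marks only the first base of the transcript.
EIF4E: tggagcggttGtgcgatcagatcgatctaa (chr4:98929114-98929143, minus strand).
EIF5B: ctgagaactcAcaccatatgtgtcctgttc (chr2:99337379-99337408, plus strand).
EIF1B: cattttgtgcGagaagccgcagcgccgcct (chr3:40309697-40309726, plus strand).
EIF2S1: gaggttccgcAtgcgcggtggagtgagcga (chr14:67360318-67360347, plus strand).

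Of the 9 genes with the pyrimidine run, EIF3M and EIF2S3 were over 2-fold lower in K-ras cells and none was over 2-fold higher. The other 7 had log2 ratios between 0.08 (EEF1A1) and 0.85 (EIF4B). The median was 0.30 over the 9 genes, against -0.22 over the 27 measured genes whose start lacks the run. Among those 27, 8 were at least 2-fold lower and 1 higher. The 12 genes without a start are in neither group, among them EIF3E (-3.35), EIF3A (-1.96) and EIF4EBP1 (1.62). Over all measured genes with a RefSeq start the medians were closer, 0.14 for the 497 genes with the run and 0.08 for the 5879 without it. At least 2-fold lower were 65 of those 497 genes and 885 of those 5879. At least 2-fold higher were 59 of those 497 and 566 of those 5879. For ribosomal proteins the median was 0.21 with the run and 0.21 without it. The search for this feature was chosen after the ratios had been seen, and a match of letters says nothing of how a gene is controlled.

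**Figure D2:**
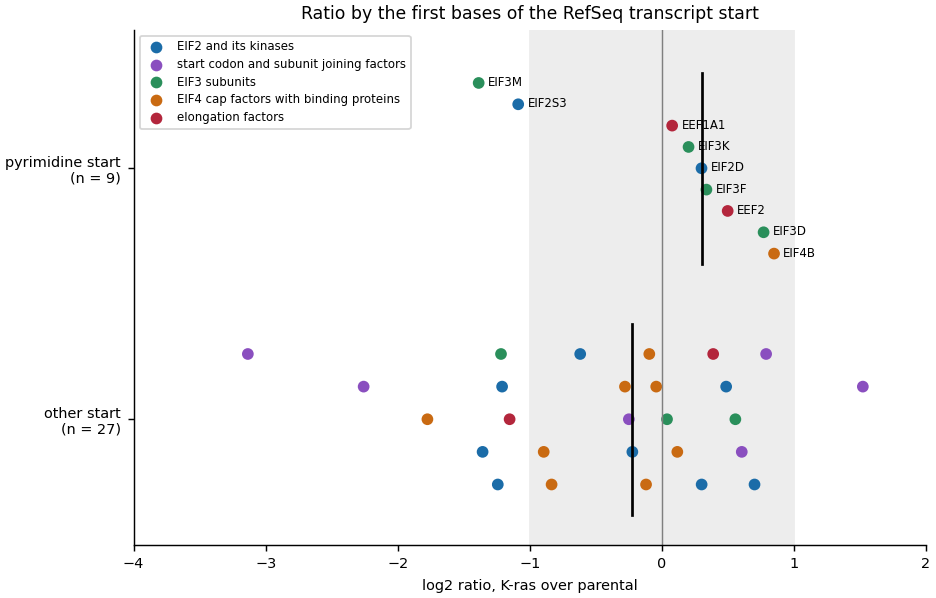
Log2 ratio, K-ras over parental, of the 36 measured genes with a RefSeq start, split by whether the transcript begins with the pyrimidine run (9 genes, named) or not (27 genes). Each point is 1 gene coloured by role, black lines are medians (0.30 and -0.22), and the grey band spans 2-fold either way. EIF3M and EIF2S3 lie apart from the other 7 genes with the run.

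EIF2 is a trimer, and all 3 of its subunit genes had a lower signal in the K-ras line. EIF2S3, the subunit that binds GTP and the initiator tRNA and whose transcript begins with the run shown above, had a signal of 408 in K-ras cells and 868 in the parental line, 2.13-fold lower. EIF2S2, the beta subunit, had 1042 in the K-ras line and 2045 in the parental line, 1.96-fold lower and just short of the 2-fold limit, which it passed under 3 of the 5 alternative scalings. A dimmer EIF2S2 probe set gave a bound at a log2 ratio of -1.07. EIF2S1, the alpha subunit that carries the regulatory phosphorylation, had 1369 in the K-ras line and 1598 in the parental line, 1.17-fold lower. Its dimmer probe sets went further down. In them the K-ras signals were 159 and 54.1 and the parental signals 624 and 129, log2 ratios of -1.97 and -1.25. How far EIF2S1 differed thus depends on the probe set, and the lower sign is shared by all 3 of its probe sets.

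EIF2B reloads EIF2 with GTP and is the complex that phosphorylated EIF2 blocks. Its 5 subunit genes did not move together. EIF2B1, the alpha subunit, had a signal of 193 in K-ras cells and 495 in the parental line, 2.56-fold lower. EIF2B3, the gamma subunit of the catalytic part, had 134 in the K-ras line and 317 in the parental line, 2.37-fold lower. EIF2B5, the catalytic epsilon subunit, had 203 in the K-ras line and 165 in the parental line, a log2 ratio of 0.30. The other regulatory subunits had log2 ratios of 0.49 (EIF2B2) and 0.70 (EIF2B4), and both probe sets of EIF2B4 gave 0.70. EIF2D, which can bring tRNA to the ribosome without GTP, had a log2 ratio of 0.30.

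The genes of the EIF2 kinases were not higher in the K-ras line. EIF2AK2, the kinase PKR that senses double-stranded RNA, had 134 in the K-ras line and 311 in the parental line, 2.31-fold lower. That probe set can pick up related transcripts and is uncertain, but the other EIF2AK2 probe set was lower still, at 73.5 in the K-ras line and 388 in the parental line, a log2 ratio of -2.40. EIF2AK3, the kinase PERK of the endoplasmic reticulum, had 27.8 in the K-ras line, under the floor, and 72.0 in the parental line, at least 1.54-fold lower. With the floor at the 30th percentile its log2 bound was -1.37, past 2-fold. EIF2AK1, the haem-regulated kinase, had 637 in the K-ras line and 754 in the parental line, a log2 ratio of -0.24. EIF2AK4, the kinase GCN2 that senses uncharged tRNA, was not analysed here. Over the 12 genes of EIF2, EIF2B, EIF2D and the kinases, 4 passed 2-fold on the lower side and 0 on the higher side. Over all measured genes these shares were 14.4% and 9.97%. The median log2 ratio of the 12 genes was -0.43, and it kept its sign under each of the 5 alternative scalings. Among these, the values as deposited hardly differ from the main scale and could not change it.

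Genes that act at the start codon differed in both directions. EIF5B, the GTPase that joins the large subunit, had a signal of 43.9 in K-ras cells, under the floor, and 412 in the parental line. It was at least 8.79-fold lower on an uncertain probe set. The size of that bound follows the floor, and with the floor at the 70th percentile its log2 value was -1.76 in place of -3.14. The other 3 measured EIF5B probe sets were likewise under the floor only in K-ras cells, with bounds at log2 ratios from -2.77 to -1.09. EIF5, which triggers GTP hydrolysis by EIF2, had 332 in the K-ras line and 1587 in the parental line, 4.79-fold lower. The other 3 EIF5 probe sets that passed the floor in both lines gave log2 ratios from -2.71 to -1.94. The dimmest EIF5 probe set, at 38.5 in the K-ras line and 53.4 in the parental line, gave a bound of only -0.19.

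EIF1, which keeps the scanning ribosome from starting at a wrong codon, and its close relative EIF1B had higher signals in K-ras cells. EIF1B had a signal of 612 in K-ras cells and 213 in the parental line, 2.87-fold higher, and has 1 probe set. EIF1 had 10361 in the K-ras line and 5994 in the parental line, a log2 ratio of 0.79 and under 2-fold. Its other 4 measured probe sets, all of the kind that can pick up related transcripts, were past 2-fold, with log2 ratios from 1.02 to 1.92. EIF6, which holds large subunits apart from small ones, had 3199.6 in the K-ras line and 2104 in the parental line, a log2 ratio of 0.61.

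EIF1AX, the partner of EIF1 in scanning, showed how much can rest on the choice of probe set. The brightest had 746 in the K-ras line and 887 in the parental line, a log2 ratio of -0.25. The other 3 gave -0.86, -1.86 and -1.96. The last of these had 63.9 in the K-ras line and 248 in the parental line. All 4 thus had a lower signal in the K-ras line. Of the 6 genes in this role, 2 were at least 2-fold lower and 1 higher, beside 14.4% and 9.97% of all measured genes.

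**Figure D3:**
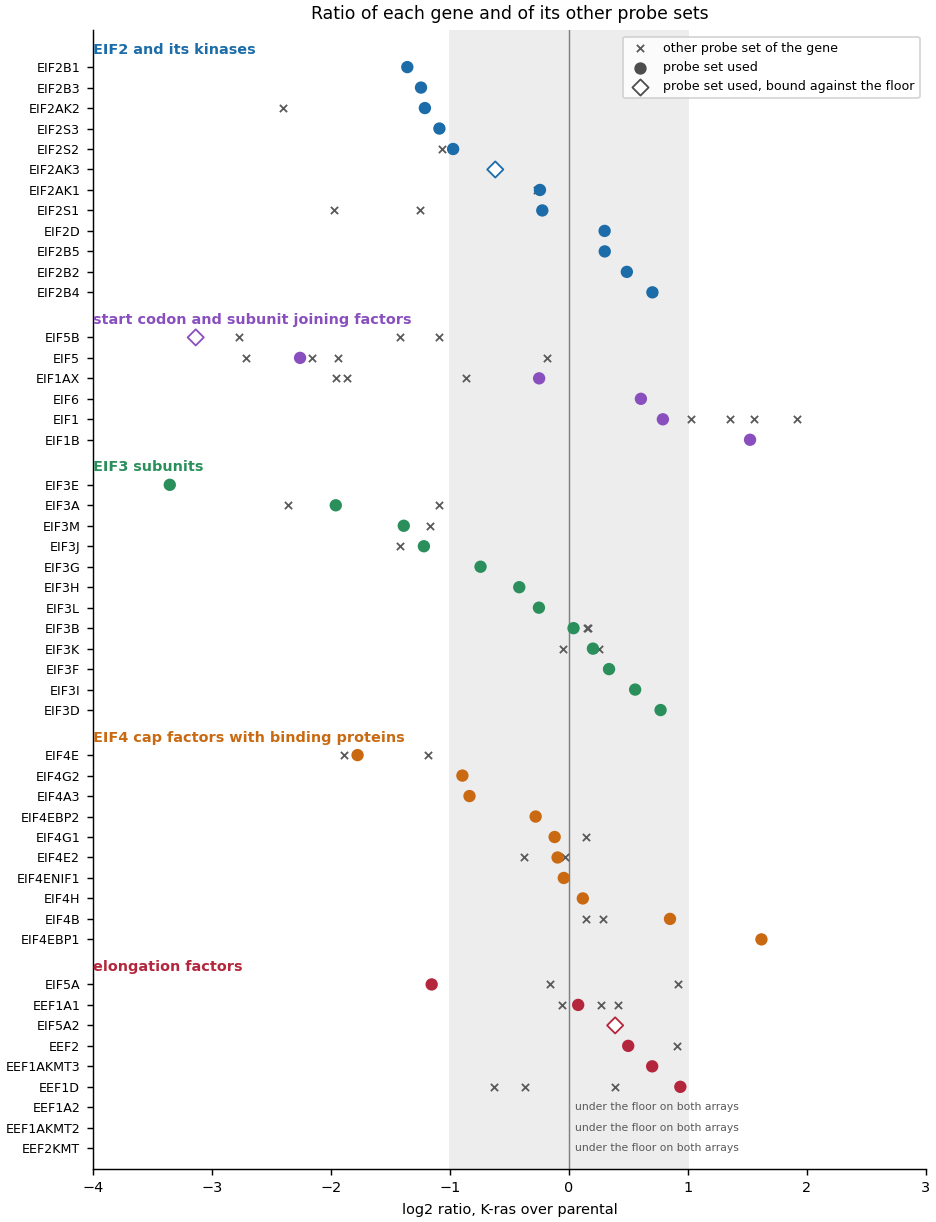
Log2 ratio, K-ras over parental, of each gene by role. Coloured points are the probe set used, open diamonds are bounds against the floor, crosses are the other measured probe sets of the gene, and the grey band spans 2-fold either way. The crosses of EIF5, EIF4E and EIF3M lie mostly beside their point, while those of EIF5A, EIF2S1 and EIF1AX lie far from it.

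EIF3 subunits ranged from over 10-fold lower to 1.71-fold higher in the K-ras line, although their proteins sit in 1 complex. EIF3E had a signal of 211 in K-ras cells and 2160 in the parental line, 10.2-fold lower, on its only probe set. That log2 ratio, -3.35, was the 13th lowest of 5996 genes that both arrays measured above the floor. EIF3A, the largest subunit and scaffold of the complex, had 219.9 in the K-ras line and 855 in the parental line, 3.89-fold lower. Its other probe sets were under the floor in the K-ras line and gave bounds at -2.36 and -1.09. EIF3M had 401 in the K-ras line and 1049.5 in the parental line, 2.62-fold lower, and another probe set gave a log2 ratio of -1.17. EIF3J, a loosely bound subunit at the mRNA channel, had 221 in the K-ras line and 514 in the parental line, 2.33-fold lower.

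The other 8 measured EIF3 subunits were within 2-fold. EIF3G had 665 in the K-ras line and 1113 in the parental line, a log2 ratio of -0.74. EIF3H and EIF3L had log2 ratios of -0.42 and -0.25. The uncertain probe sets of EIF3B and EIF3K, and that of EIF3F, gave 0.04, 0.20 and 0.34. EIF3I had 2676 in the K-ras line and 1819 in the parental line, a log2 ratio of 0.56. EIF3D, a subunit that can itself bind the mRNA cap, stood at the other end with 2391 in the K-ras line and 1402 in the parental line, a log2 ratio of 0.77. Over the 12 subunits the median log2 ratio was -0.33, with 4 past 2-fold on the lower side and 0 on the higher side. Over all measured genes 14.4% were lower and 9.97% higher. Of the 7 measured subunits of the structural octamer (EIF3A, EIF3E, EIF3F, EIF3H, EIF3K, EIF3L and EIF3M) 3 were at least 2-fold lower, and of the other 5 subunits 1 was. EIF3C was not analysed here.

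Among the EIF4 cap factors, EIF4E and its inhibitor EIF4EBP1 differed in opposite directions. EIF4E, the protein that binds the mRNA cap, had a signal of 187 in K-ras cells and 641 in the parental line, 3.42-fold lower. Its other probe sets gave a log2 ratio of -1.89 and a bound at -1.18, both past 2-fold in the same direction. EIF4EBP1, which holds EIF4E away from EIF4G until mTOR phosphorylates it, had 1702 in the K-ras line and 555 in the parental line, 3.07-fold higher, on its only probe set. The related EIF4EBP2 had 124 in the K-ras line and 151 in the parental line, a log2 ratio of -0.28. The array measures neither the proteins nor their phosphorylation.

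The scaffold EIF4G1 had nearly the same signal in both lines, 1053 in the K-ras line and 1144 in the parental line, so that its probe sets stood at log2 ratios of -0.12 and 0.15. EIF4G2, a related scaffold that lacks the EIF4E site, had 1656 in the K-ras line and 3079 in the parental line, a log2 ratio of -0.89. EIF4A3, a helicase of the exon junction complex rather than of initiation, had 700.5 in the K-ras line and 1249.7 in the parental line, a log2 ratio of -0.84. EIF4A1 and EIF4A2 were not analysed here. The helicase cofactor EIF4B had 1937 in the K-ras line and 1075 in the parental line, a log2 ratio of 0.85, with other probe sets at 0.28 and 0.14. The other cofactor, EIF4H, was at 0.12. EIF4E2, a cap-binding protein that represses translation, was at -0.10, and the EIF4E shuttling protein EIF4ENIF1 at -0.04. In this role 1 of 10 genes was at least 2-fold lower and 1 higher, beside 14.4% and 9.97% of all measured genes. The median log2 ratio of the 10 genes was -0.11, and turned to 0.09 when the arrays were scaled on the maintenance probe sets.

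The elongation factors EEF1A1, EEF2 and EEF1D were within 2-fold between the lines. EEF1B2 and EEF1G were not analysed here. EEF1A1, which delivers aminoacyl-tRNA and whose start sequence is given above, had a signal of 11088 in K-ras cells and 10505 in the parental line, a log2 ratio of 0.08. The sign of so small a ratio is set by the scaling, and that of EEF1A1 turned under another scaling, as did those of EIF3B, EIF4G1, EIF4E2 and EIF4ENIF1. The other 3 EEF1A1 probe sets gave -0.06 to 0.41, and all 4 can pick up related transcripts of this many-copied sequence. EEF2, which moves the ribosome by 1 codon, had 5118 in the K-ras line and 3623 in the parental line, a log2 ratio of 0.50, with another probe set at 0.91. EEF1D, a subunit of the factor that reloads EEF1A with GTP, had 2031 in the K-ras line and 1061 in the parental line, 1.91-fold higher and just short of the limit. Dimmer EEF1D probe sets gave log2 ratios of 0.39 and -0.63 and a bound at -0.37, so its sign depends on the probe set.

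EIF5A, once classed with initiation and known to relieve stalled elongation through its hypusine residue, was the 1 gene of 6 measured in this role that passed 2-fold. It had 260.1 in the K-ras line and 578 in the parental line, 2.22-fold lower. Its other probe sets, both uncertain, gave log2 ratios of -0.16 and 0.91, so neither the size nor the sign is shared among them. EIF5A2, its close relative, had 61.4 in the K-ras line and 39.8, under the floor, in the parental line, at least 1.31-fold higher. EEF1AKMT3, a methyltransferase of EEF1A, had a log2 ratio of 0.70. EEF1A2, the form typical of muscle and neurons, had 46.2 in the K-ras line and 22.3 in the parental line, under the floor on both arrays. The methyltransferases EEF1AKMT2 and EEF2KMT were also not measured. The median log2 ratio of the 6 measured genes was 0.44. Of these 6 genes 1 was at least 2-fold lower, beside 14.4% of all measured genes.

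**Figure D4:**
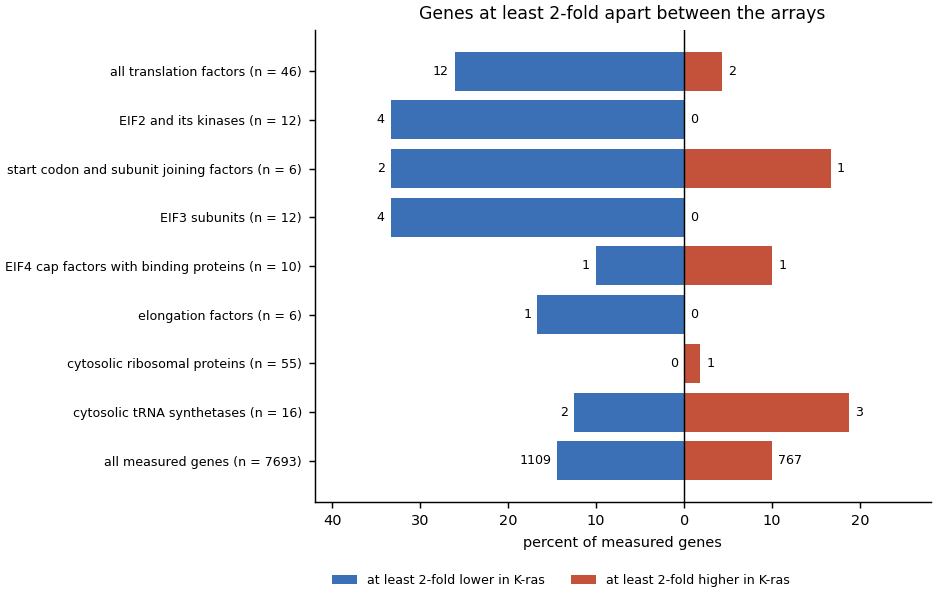
Percent of measured genes at least 2-fold lower (left of 0) and at least 2-fold higher (right of 0) in the K-ras line, for the translation factors, their roles, 2 other gene families of protein synthesis and all measured genes. Numbers at the bar ends count genes. Translation factors have 12 lower and 2 higher of 46, and cytosolic ribosomal proteins have none lower and 1 higher of 55.

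Other components of protein synthesis give a scale for these shares. Of 55 measured genes of cytosolic ribosomal proteins none was at least 2-fold lower and 1 was higher, with log2 ratios from -0.99 to 1.05 and a median of 0.21. Of 16 genes of cytosolic aminoacyl-tRNA synthetases, which charge tRNAs with amino acids, 2 were lower and 3 higher, with a median of 0.10. The shares of all measured genes were 14.4% lower and 9.97% higher. The elongation factors EEF1A1, EEF2 and EEF1D lay within the range of the ribosomal proteins. With 1 array per line these differences between families could not be tested.

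Several genes that act with EIF2 differed more than EIF2 itself. In a list of 13 genes of EIF2 dephosphorylation and read-out, 10 were measured. Of these, 4 were at least 2-fold higher and 2 lower in the K-ras line, beside 9.97% and 14.4% of all measured genes. PPP1R15A, the stress-induced subunit that directs protein phosphatase 1 to EIF2, was the highest, at 2519 in the K-ras line and 158 in the parental line, 15.9-fold higher. The catalytic subunits of that phosphatase did not follow it. PPP1CB had 67.4 in the K-ras line and 373 in the parental line, 5.53-fold lower, PPP1CC was 2.97-fold lower, and PPP1CA had a log2 ratio of 0.29. ATF4, whose mRNA is translated better when EIF2 is phosphorylated, had 4879 in the K-ras line and 1272 in the parental line, 3.84-fold higher. TRIB3 and ATF3, stress genes known to follow ATF4, were 4.74-fold and 6.94-fold higher. DDIT3, which encodes the stress transcription factor CHOP, had 196 in the K-ras line and 103 in the parental line, 1.92-fold higher. NCK1, an adaptor known to bring a phosphatase to EIF2, was 1.99-fold lower, and another probe set gave a log2 value of -1.31. GCN1, a coactivator of the kinase GCN2, had a log2 ratio of -0.41, with another probe set at -0.06. This list was chosen with the stress response of these data known.

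**Figure D5:**
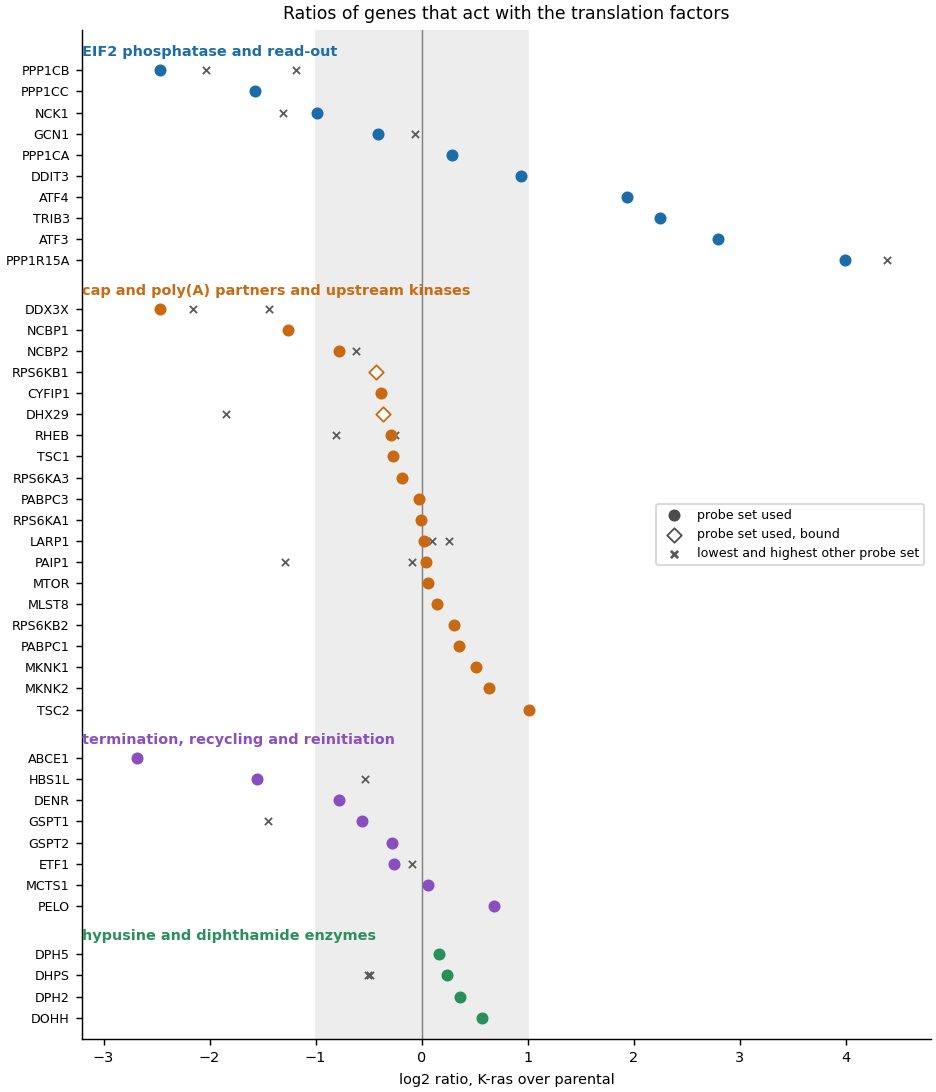
Log2 ratio, K-ras over parental, of the measured genes in 4 lists of genes that act with the translation factors. Coloured points are the probe set used, open diamonds are bounds, crosses are the lowest and highest other probe set, and the grey band spans 2-fold either way. PPP1R15A stands at the higher end, and ABCE1, DDX3X and PPP1CB at the lower end.

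Among partners of the cap complex and the kinases above it, most genes did not pass 2-fold. Of 26 genes listed 20 were measured, with 1 at least 2-fold higher and 2 lower and a median log2 ratio of -0.02. Over all measured genes 9.97% were higher and 14.4% lower. DHX29 and RPS6KB1 are bounds, at log2 ratios of -0.36 and -0.43, which do not show that they lay within 2-fold. Another DHX29 probe set gave a log2 value of -1.85. PAIP1 had a log2 ratio of 0.04, with other probe sets from -1.29 to -0.10. DDX3X, a helicase that helps unwind structured mRNA leaders, had 262 in the K-ras line and 1453 in the parental line, 5.54-fold lower, and its other probe sets gave log2 ratios from -2.16 to -1.44. NCBP1, a subunit of the nuclear cap-binding complex, was 2.40-fold lower. TSC2, which restrains mTOR, was 2.02-fold higher, just past the limit. MTOR itself had a log2 ratio of 0.06, LARP1, which binds pyrimidine-start mRNAs, 0.03, and the poly(A)-binding protein PABPC1 0.35 on an uncertain probe set. The EIF4E kinases MKNK1 and MKNK2, which act below the MAP kinases, had log2 ratios of 0.51 and 0.64.

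Termination and recycling genes lay mostly below 0. Their median log2 ratio was -0.42. Of the 8 measured genes 2 passed 2-fold, both on the lower side, where 14.4% of all measured genes lay. ABCE1, the ATPase that splits ribosomes and prepares them for a new round of initiation with EIF3J, had 127 in the K-ras line and 821 in the parental line, 6.44-fold lower. Its other probe set gave the same log2 ratio to within 0.01, at -2.68 against -2.69. HBS1L, which with PELO rescues stalled ribosomes, was 2.93-fold lower, with another probe set at -0.53, and PELO had a log2 ratio of 0.68. The release factors ETF1 and GSPT1 were at -0.26 and -0.56, with other probe sets at -0.09 and -1.45. Of the enzymes that make hypusine on EIF5A and diphthamide on EEF2, 4 of 8 were measured and none passed 2-fold, with log2 ratios from 0.16 (DPH5) to 0.57 (DOHH). DHPS, which starts hypusine synthesis, was at 0.24, but its other probe sets lay between -0.51 and -0.49.

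The only repeat measurement in these data is that between probe sets of a gene, and it is technical. For 17 translation factor genes several probe sets were above the floor in both lines. Pooled over these genes, log2 ratios varied within a gene with a standard deviation of 0.54, against 0.46 over 1671 genes of the whole array. In 12 of the 17 all probe sets had the same sign. Of the 14 genes past 2-fold, 8 had another measured probe set. In 7 of these 8 all of them had the same sign, and in 6 all of them also passed 2-fold or gave a bound past it. The exceptions were EIF5A, with a probe set of the other sign, and EIF5, with the dim probe set described above. EIF3E, EIF2B1, EIF2B3, EIF2S3, EIF4EBP1 and EIF1B rest on 1 probe set each.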

How the data were processed

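Per the labels, RNA came from a phenol and chloroform extraction followed by an RNeasy kit, and cRNA was made the standard Affymetrix way. The deposited table holds 1 linear intensity for each of 22283 probe sets and array, made with software that the sources used here do not give. As deposited, both columns had a mean of 150.06 after leaving out the lowest and highest 2%, the form of a signal already scaled to a common target. Both were set to exactly the same trimmed mean.

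Names came from GEO's platform annotation, which gives 19071 probe sets 1 symbol, 1043 several and 2169 none. All 49 members matched the symbols of GRCh38.p14. A further 12 probe sets of these families carry several symbols and were left out. Each member is named under its role. Signals on each array are given for those at least 2-fold apart or bounds, for EIF2 subunits and kinases, for the cap complex with the EIF4E-binding proteins and for EEF1A and EEF2. A probe set ending in _x_at is called uncertain, since related transcripts can bind to it. The members, the lists and the settings were chosen with earlier results of these data known. The alternatives were 5 scalings, 3 treatments of the floor, 2 choices of probe set, and thresholds of 3-fold and 1.5-fold. The scalings include the values as deposited, which hardly differ from the main scale. The number of arrays limits the precision. The work used pandas 2.3.3 and numpy 2.4.6 under Python 3.11.15, statsmodels 0.14.6 for loess, scipy 1.17.1 and, for figures, matplotlib 3.10.9.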

Additional observations from a re-analysis of the deposited data

How the results depend on the processing

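Of the 14 genes past 2-fold, 10 were past it in the same direction under every scaling, floor and probe set alternative that gave them a value, and none of the 14 changed sign. The exceptions were EIF2S3 (log2 ratio -0.89) and EIF5A (-0.96) when scaled on the maintenance probe sets, 4 of which measure translation factors. Others were EIF2AK2 with the floor as a pseudocount (-0.98), EIF5A with the median over probe sets (-0.16) and EIF5 without _x_at and _s_at probe sets (-0.19), where its dim probe set alone is left. EIF2S2 passed 2-fold under quantile normalization (-1.03), median centring (-1.07), loess (-1.04) and without _x_at and _s_at probe sets (-1.07). Calls were also gained by EIF2AK3 (-1.37, floor at the 30th percentile), EIF4G2 (just past it, loess), EIF2S1 (-1.97, without _x_at and _s_at probe sets) and, with the median over probe sets, by EIF2S1 (-1.25), EIF1AX (-1.36) and EIF1 (1.36). Maintenance scaling added EEF1D (1.13) and EIF4B (1.05). The log2 ratio of EIF5B was -1.76 with the floor at the 70th percentile, -2.34 with it as a pseudocount and -1.42 without _x_at and _s_at probe sets. Maintenance scaling raised the higher genes to 4 of 46, to 2 for EIF4 factors and to 1 for elongation factors, and left 0 elongation factors lower. Over all measured genes it gave 1093 higher and 844 lower, against 767 and 1109. The loess curve gave 2 EIF4 factors lower, beside 15.3% of all genes measured this way. The floor at the 30th percentile gave 1 elongation factor higher, beside 13.9% of all genes measured with that floor. The median over probe sets gave 2 start codon factors higher with a median of -0.38 in place of 0.18, and 0 elongation factors lower. Of all genes measured by that median 9.91% were higher and 13.9% lower. Without _x_at and _s_at probe sets 27 genes were measured and no elongation factor was. Of these 27, 10 were at least 2-fold lower and 2 higher, beside 15.5% and 9.88% of all genes measured this way. Lower were 6 of 9 genes of EIF2 and its kinases, 2 EIF3 subunits and 1 start codon factor. The medians were then -0.74 over the translation factors, -1.09 for EIF2 and its kinases and -0.52 for start codon factors, against 0.09 over all genes. The cause of these shifts was not tested. At 3-fold, 5 genes were lower and 1 higher, beside 480 lower and 185 higher of all 7693 measured genes. The lower genes fell to 0 for EIF2 and its kinases, 2 for EIF3 and 0 for elongation factors. Higher start codon factors fell to 0. At 1.5-fold, 17 were lower and 9 higher, beside 1860 lower and 1845 higher of all 7693 measured genes. The higher ones were 1 gene of EIF2 and its kinases, 1 EIF3 subunit, 2 EIF4, 3 start codon and 2 elongation factors, and 3 of the lower ones were EIF4 factors. Of 208 counts, medians and spreads recomputed, 181 stayed within 1.5 times or within the spread between probe sets. That number does not measure stability. The 181 include values as deposited, which hardly differ from the main scale, and counts of 0 that stayed 0. They also include the medians of all translation factors and of the EIF4 factors, whose sign turned under maintenance scaling. No paired analysis was possible because each line has 1 array.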

Other observations

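Across the 43 translation factor genes above the floor on both arrays, log2 ratios were lower for genes of longer genomic span, with Spearman's rho = -0.38. Over 5995 genes of the array rho was -0.22. These are descriptions across genes measured on the same 2 arrays, and genes are not independent replicates. With the mean log2 signal, rho was 0.32 over the translation factors and -0.01 over the array.

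The 12 probe sets of these families that carry several symbols were all measured. None of them was at least 2-fold apart, beside 24.4% of all measured genes. Their log2 ratios ran from -0.81 to 0.73 with a median of 0.31. Within the 17 genes with several probe sets above the floor, the brightest probe set gave a higher ratio than the median of the others in 7 genes and a lower one in 10.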
